A study of Drosophila melanogaster with 15 samples.

Results

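The Rab proteins are a family of small GTPases that direct membrane traffic between the compartments of a cell. The genes described here were chosen from the platform annotation, as those whose single symbol was Rab or RabX followed by a number, and a gene with more than 1 probe set was represented by the one whose mean was highest. The rule found 21 genes on 22 probe sets, of 11981 named genes and 18769 probe sets in all, and only Rab26 had more than 1 probe set. Of the 28 symbols of this form in a current RefSeq gene table, Rab1, Rab4, Rab5, Rab6, Rab7, Rab8 and Rab11 were not analysed here.

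RNA was measured on 15 Affymetrix arrays of neurons sorted by fluorescence from brains of third-instar (L3) Drosophila larvae, which were kept at 25 °C under alternating light and dark periods of 12 h each. The ventral lateral neurons (LNvs) are circadian pacemaker neurons that release the peptide Pigment-dispersing factor, and the series description gives 8 per brain. There were 5 groups of 3 arrays, and zeitgeber time (ZT) counts hours from lights-on. The cyc0 LNvs at ZT15 carried Pdf-RFP and cyc0 in a yw background, and the per0 LNvs at ZT15 carried Pdf-RFP and per0 in a yw background. Both alleles remove a protein of the circadian clock, the activator CYC in cyc0 and the repressor PER in per0. The wild-type LNvs at ZT15 and at ZT3 carried yw, Pdf-Gal4 and UAS-GFP. The neurons set against them, also at ZT15, carried elav-Gal4 and UAS-GFP, so that a pan-neuronal driver labelled them, and they are called elav neurons here. The reporter differed between the mutants and wild type, so genotype and reporter cannot be told apart in those comparisons, nor can they be told apart from the cell type where cyc0 or per0 LNvs are set against elav neurons. The labels name no yw for the elav neurons, so background and cell type are also joined in all 3 comparisons with them.

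A Rab protein acts as a switch. An activator, or GEF, loads it with GTP on the membrane, where it recruits effectors such as tethers and motors. An inactivator, or GAP, triggers GTP hydrolysis, and GDI then takes the protein off the membrane. In neurons the family is known for its part in synaptic vesicle and peptide vesicle release, endosomal sorting, and transport along axons and dendrites.

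Levels are the deposited log2 values, made with GCRMA, and a value of log2 4 was used as a working level for presence, which is not a measured detection limit. Values from 1 probe set are not set against those of another. On an array between 3520 and 5436 of the 18769 probe sets reached log2 4. The peptide gene Pdf lay between 12.37 and 13.07 on the 12 LNv arrays and between 3.06 and 4.49 on the elav arrays, as the labels have it, which is no independent finding, since its promoter drove the reporters. The neuron marker elav lay between 5.00 and 8.67 on the LNv arrays and between 8.40 and 9.28 on the elav arrays. Of the arrays, cyc0 replicate 3 and wild-type ZT15 replicate 1 correlated least with their own groups (mean r of 0.785 and 0.786 over the probe sets tested, the other arrays 0.807 to 0.913).

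About 4 in 10 of the 21 Rab genes found by the rule were present in each group. The number of genes with all 3 arrays at or above log2 4 was 9 of 21 in cyc0 LNvs, 8 in per0 LNvs, 8 in wild-type LNvs at ZT15, 9 in ZT3 wild-type LNvs and 8 in elav neurons. The shares were 42.9%, 38.1%, 38.1%, 42.9% and 38.1% in that order, against 22.6%, 22.1%, 20.0%, 20.6% and 18.9% of all named genes. Rab2, Rab3, Rab10, Rab14, Rab30, RabX4 and RabX6 reached log2 4 on all 15 arrays, which is 33.3% of the 21 genes against 12.6% of all named genes. Rab40 reached it on 14 arrays, with 3.93 on per0 replicate 2. Rab23, RabX2 and RabX5 reached it on no array, which is 14.3% of the 21 genes against 47.9% of all named genes. The other 10 genes reached it on 1 to 10 arrays.

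**Figure D1:**
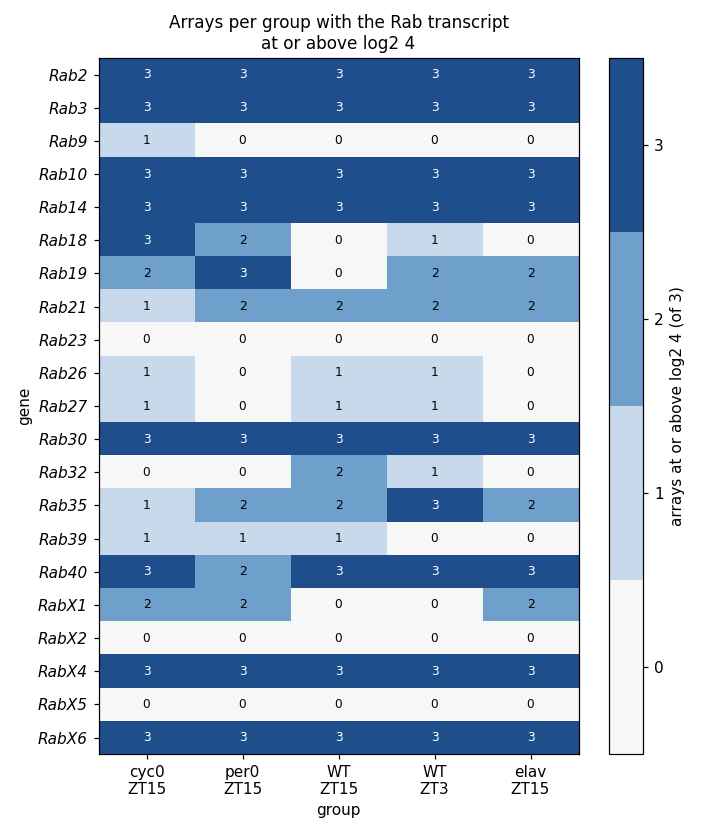
Arrays of each group (0 to 3, number and shade) on which the transcript lay at or above log2 4, with the 21 Rab genes in rows and the 5 groups in columns. Rows that are dark throughout are the 7 genes present on all 15 arrays, and Rab23, RabX2 and RabX5 are at 0 in every group.

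**Figure D2:**
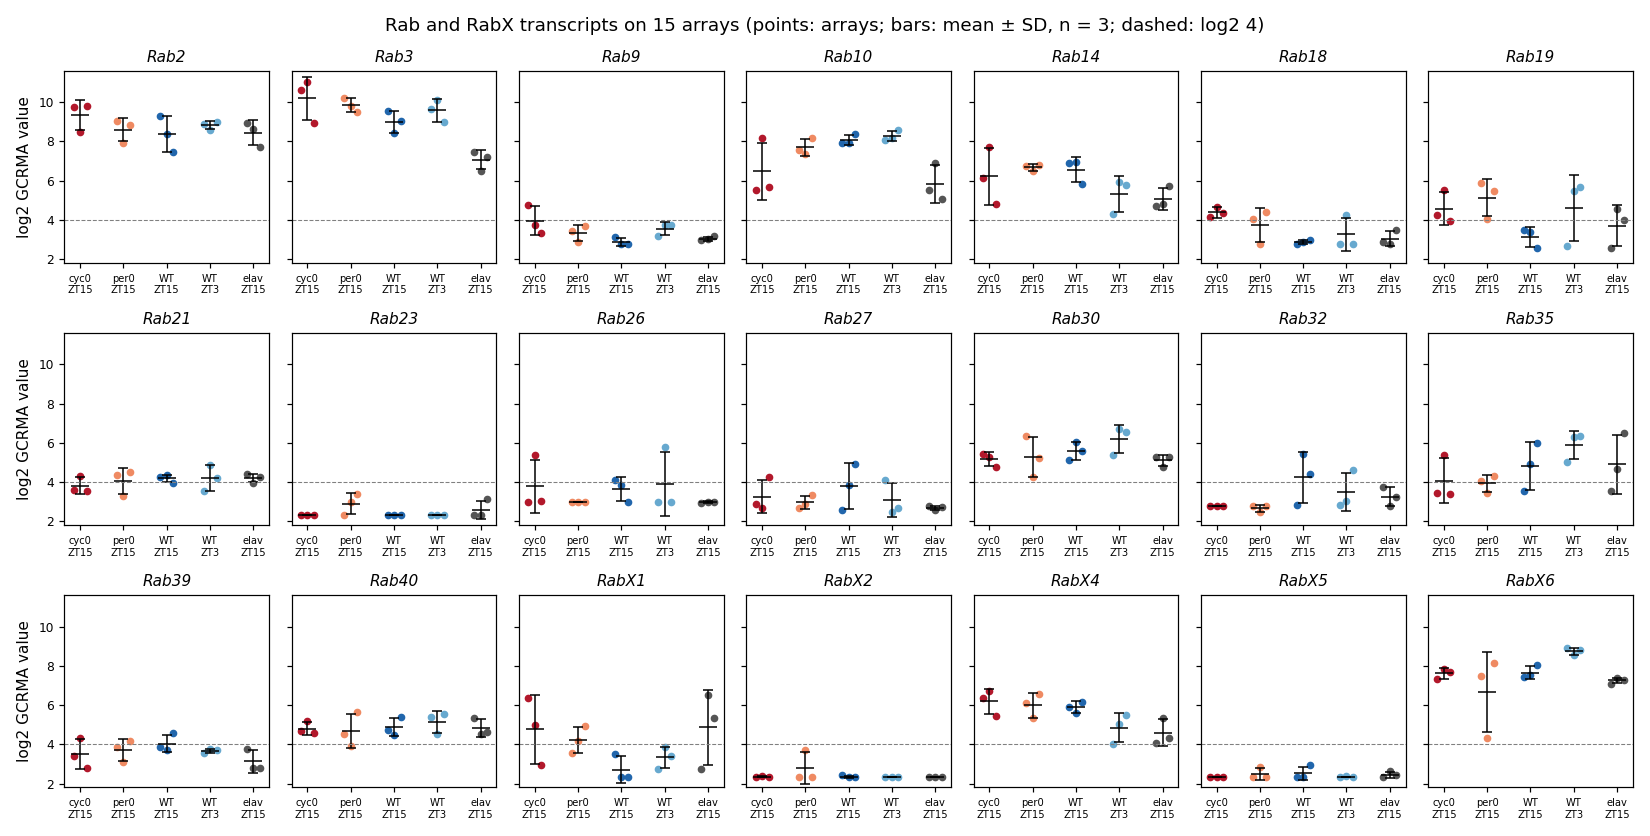
The log2 GCRMA value (vertical axis) of the 21 Rab genes on each array, with a panel per gene and groups along the horizontal axis; points are arrays, bars are mean ± SD (n = 3) and the dashed line is log2 4. Rab3 is lower on the 3 elav arrays (6.51 to 7.44) than on all 12 LNv arrays (8.43 to 11.01).

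Among the Rab proteins of the secretory route, Rab3 and Rab10 differed most plainly between groups. Rab3, which sits on synaptic vesicles and in flies also shapes the active zone, stood at 10.64, 11.01 and 8.96 in cyc0 LNvs. It stood at 10.21, 9.81 and 9.50 in per0 LNvs and at 9.54, 8.43 and 9.03 in wild-type LNvs at ZT15. At ZT3 the wild-type LNvs had 9.66, 10.13 and 8.98, against 7.44, 6.51 and 7.23 in elav neurons. The lowest of the 12 LNv arrays lay above the highest elav array, and each LNv group overlapped with every other LNv group.

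Rab10, which acts in exocytosis and endosomal recycling, stood at 7.55, 7.34 and 8.19 in per0 LNvs, at 7.92, 7.92 and 8.37 in wild-type LNvs at ZT15 and at 8.07, 8.20 and 8.56 in wild-type LNvs at ZT3. The cyc0 arrays were spread, at 5.54, 8.17 and 5.70, against 5.54, 6.92 and 5.06 in elav neurons. So 2 of the 3 cyc0 arrays lay within the range of the elav neurons and 1 within that of the other LNvs.

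The other genes of this class were low. Rab27, a regulator of secretory granule release, averaged 3.26 in cyc0, 2.96 in per0, 3.79 in wild-type ZT15 and 3.09 in wild-type ZT3 LNvs, against 2.68 in elav neurons, and 1 array in each of the cyc0 and both wild-type groups reached log2 4, the highest at 4.92. Rab26, linked in mammals to secretory granules and synaptic vesicles, reached log2 4 on 3 LNv arrays (5.36 in cyc0 replicate 2, 4.11 in wild-type ZT15 replicate 1 and 5.80 in wild-type ZT3 replicate 2). Its other probe set stayed between 2.33 and 3.44 on all arrays.

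Rab genes of the endoplasmic reticulum and Golgi apparatus were a mix of steady and variable transcripts. Rab2, which acts at the Golgi apparatus and in dense-core vesicle maturation and lysosome fusion, averaged 9.35 ± 0.75 in cyc0, 8.61 ± 0.58 in per0, 8.37 ± 0.92 in wild-type ZT15 and 8.83 ± 0.22 in wild-type ZT3 LNvs, against 8.44 ± 0.63 in elav neurons (SD, n = 3 each). Rab30, a Golgi protein, averaged between 5.10 in elav neurons and 6.22 in wild-type LNvs at ZT3. For both genes the groups overlapped at ZT15.

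Rab18, found on the endoplasmic reticulum and on lipid droplets, was at or above log2 4 on all 3 cyc0 arrays (4.13, 4.66 and 4.36). It had 4.07, 2.78 and 4.43 in per0 LNvs, 2.78, 2.87 and 2.99 in wild-type LNvs at ZT15 and 2.78, 4.24 and 2.78 in ZT3 wild-type LNvs, against 2.87, 2.78 and 3.47 in elav neurons. Rab19, a Golgi-associated member, had 4.23, 5.54 and 3.97 in cyc0 LNvs and 5.89, 4.07 and 5.46 in per0 LNvs. It had 3.49, 3.39 and 2.56 in wild-type LNvs at ZT15, 2.69, 5.49 and 5.68 in ZT3 wild-type LNvs and 2.56, 4.56 and 4.02 in elav neurons. Both genes were below log2 4 on every wild-type LNv array at ZT15 and above those 3 arrays on all cyc0 arrays. Neither difference passed by limma (adjusted p = 0.15 for Rab18 and 0.334 for Rab19). The share of all genes without overlap was not counted, so this separation is only described.

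In the endosomal and lysosomal class, Rab14, which acts between endosomes, phagosomes and lysosomes, had 6.16, 7.71 and 4.79 in cyc0 LNvs and 6.77, 6.48 and 6.79 in per0 LNvs. It had 6.92, 6.94 and 5.84 in wild-type LNvs at ZT15 and 4.28, 5.93 and 5.79 in ZT3 wild-type LNvs, against 4.69, 4.79 and 5.71 in elav neurons. The per0 and wild-type ZT15 arrays lay above all elav arrays, and the cyc0 and ZT3 arrays overlapped with them.

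Rab32, which in flies is needed for the pigment granules of the eye, lay between 2.47 and 2.79 on all 6 arrays of cyc0 and per0 LNvs. It had 2.84, 5.45 and 4.42 in wild-type LNvs at ZT15 and 2.85, 3.02 and 4.61 at ZT3, against 3.73, 2.77 and 3.26 in elav neurons. RabX1, an endosomal member, had 6.38, 4.96 and 2.92 in cyc0 LNvs, 3.56, 4.18 and 4.92 in per0 LNvs, 3.51, 2.31 and 2.31 in wild-type LNvs at ZT15 and 2.74, 3.84 and 3.40 at ZT3, against 2.74, 6.49 and 5.36 in elav neurons. Its SD of 1.93 was the largest among the 17 tested Rab genes in elav neurons, and its SD of 1.74 the largest in cyc0 LNvs.

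Rab21, an early endosome protein, lay near the working level in every group, between 3.29 and 4.87. Rab35, of the recycling route, averaged 4.07 in cyc0, 3.93 in per0, 4.82 in wild-type ZT15 and 5.89 in wild-type ZT3 LNvs, against 4.91 in elav neurons, with an SD of 1.5 in elav neurons. Rab39 ranged from 2.79 to 4.55. Rab9, which serves retrieval of cargo from late endosomes, reached log2 4 on 1 array, at 4.78 in cyc0 replicate 1.

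Of the remaining members, Rab40, which carries a SOCS box as in ubiquitin ligases, averaged 4.80 in cyc0, 4.69 in per0, 4.87 in wild-type ZT15 and 5.14 in wild-type ZT3 LNvs, against 4.82 in elav neurons. RabX4 had 6.36, 6.73 and 5.45 in cyc0 LNvs, 6.10, 5.32 and 6.58 in per0 LNvs, 5.92, 5.60 and 6.17 in wild-type LNvs at ZT15 and 4.03, 5.03 and 5.47 at ZT3, against 4.07, 5.36 and 4.34 in elav neurons. RabX6 had 7.32, 7.85 and 7.69 in cyc0 LNvs, 7.50, 4.34 and 8.16 in per0 LNvs, 7.41, 7.51 and 8.04 in wild-type LNvs at ZT15 and 8.88, 8.53 and 8.79 at ZT3, against 7.09, 7.38 and 7.29 in elav neurons. The value of 4.34 in per0 replicate 2 gave RabX6 an SD of 2.04, the largest of the tested Rab genes in per0 LNvs. Rab23, known from Hedgehog signalling and planar polarity, stayed between 2.33 and 3.38, RabX2 between 2.32 and 3.72, and RabX5 between 2.32 and 2.92.

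The first set of comparisons asked which Rab transcripts set the LNvs apart from elav neurons at ZT15. Tests used limma on all probe sets with log2 4 on at least 3 of the 15 arrays, with Benjamini-Hochberg adjustment, and 17 of the 21 Rab genes were tested; Rab9, Rab23, RabX2 and RabX5 were not. A member that reached the level in 1 group alone could be tested because of that group. Log2 differences are the first-named group minus the second, and fewer cells of a type and less RNA per cell cannot be told apart in such samples. All 3 comparisons share the elav arrays.

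Rab3 rose in each of the 3 LNv groups at ZT15 relative to elav neurons. In cyc0 LNvs the mean was 10.20 ± 1.09, against 7.06 ± 0.49 in elav neurons (SD, n = 3 each), a log2 difference of 3.14 (SE 0.59), or 8.83-fold, with an adjusted p = 0.00385 by limma. In per0 LNvs it was 9.84 ± 0.36, a log2 difference of 2.78 (SE 0.59), or 6.88-fold, with an adjusted p = 0.00582. In wild-type LNvs it was 9.0 ± 0.56, a log2 difference of 1.94 (SE 0.59), or 3.84-fold, with an adjusted p = 0.0382. The calls in both mutants held in each of the 24 alternatives run. The call in wild-type LNvs did not hold after quantile normalization (1.49, adjusted p = 0.0626) nor with all probe sets kept (0.0917) or when the other 9 arrays were left out of the fit (0.0616), and was lost without wild-type ZT15 replicates 1 or 3 or any of the elav arrays, with adjusted p = 0.111, 0.0889, 0.0585, 0.13 and 0.0664 in that order.

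Rab10 rose in wild-type LNvs, at 8.07 ± 0.26 against 5.84 ± 0.96 in elav neurons (SD, n = 3 each), a log2 difference of 2.23 (SE 0.66), or 4.69-fold, with an adjusted p = 0.0347. That call was lost without any single wild-type ZT15 array (adjusted p = 0.059, 0.0714 and 0.102 for replicates 1, 2 and 3) and without elav replicate 1 or 3 (0.104 and 0.125), with no filter (0.125) and in a fit to the 6 arrays compared (0.0588). Rab10 did not pass in per0 LNvs (log2 difference 1.85, adjusted p = 0.0869), but passed there without elav replicate 2 (2.39, adjusted p = 0.0493) or without cyc0 replicate 2 (1.85, adjusted p = 0.0318), an array that adds only to the pooled estimate of the spread. It differed by 0.63 (SE 0.66, adjusted p = 0.666) in cyc0 LNvs.

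In count, 1 Rab gene of 17 passed in cyc0 LNvs, where 5.77% of the 4718 named genes tested passed, and 1 of 17 in per0 LNvs, where 10.3% passed. In wild-type LNvs 2 of 17 passed, where 12.4% of genes did. No Rab gene fell, and the shares lie near those of all genes. The median log2 difference of the 17 genes was 0.58 in cyc0, 0.17 in per0 and 0.47 in wild-type LNvs, against 0.28, 0.33 and 0.07 over all genes tested. Quantile normalization brought the medians of all genes to 0.11, 0.11 and 0.01 and those of the Rab genes to 0.42, 0.10 and 0.22.

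Of the 15 or 16 Rab genes that did not pass, RabX4 differed by 1.59, 1.41 and 1.31 in cyc0, per0 and wild-type LNvs (adjusted p = 0.118, 0.126 and 0.146), and Rab14 by 1.15, 1.61 and 1.5 (adjusted p = 0.38, 0.145 and 0.164). RabX1 differed by -2.15 in wild-type LNvs (adjusted p = 0.124) and passed there without elav replicate 1 (-3.22, adjusted p = 0.0256). Rab40 and Rab21 differed by at most 0.40 in size in these comparisons, and the 95% interval of Rab40 was -1.17 to 1.13 in cyc0, -1.28 to 1.02 in per0 and -1.10 to 1.20 in wild-type LNvs.

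**Figure D3:**
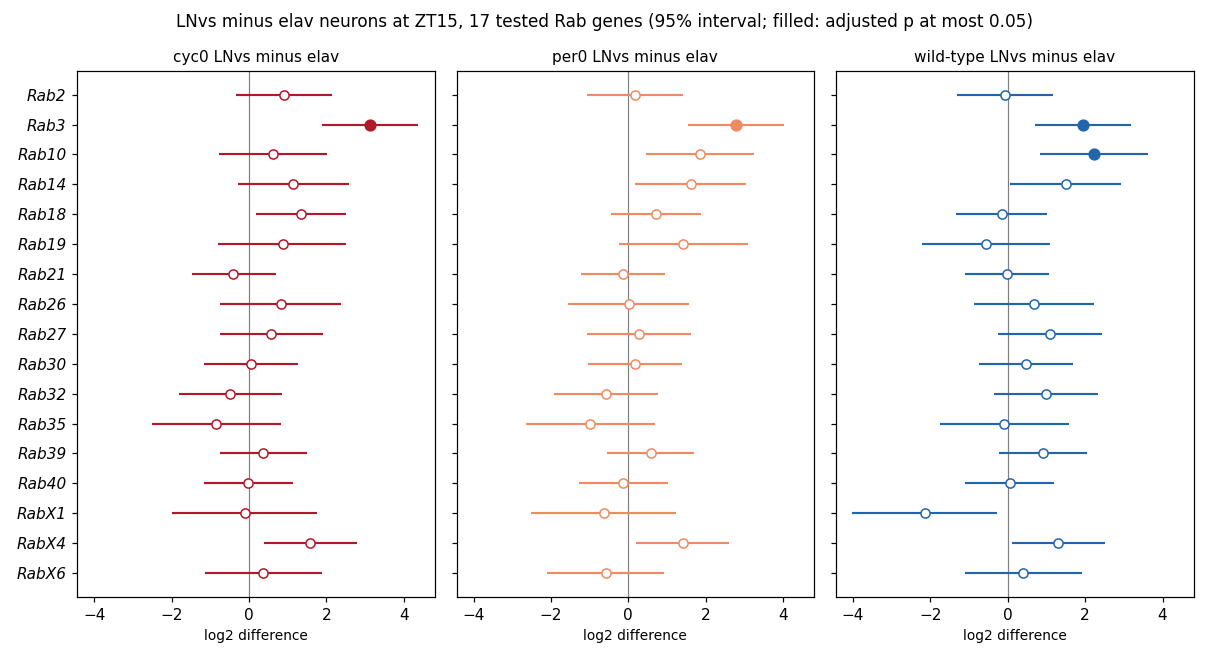
Log2 differences (horizontal axis, points) with 95% intervals (lines) between LNvs and elav neurons at ZT15 for the 17 tested Rab genes, with a panel each for cyc0, per0 and wild-type LNvs; filled points have an adjusted p of at most 0.05. Rab3 is filled in all 3 panels (3.14, 2.78 and 1.94) and Rab10 in the wild-type panel (2.23).

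Markers of dividing and newborn cells were higher in the elav neurons beside these differences. The mean log2 level of 5 neuroblast markers was 2.64 to 4.02 on the cyc0 arrays, 2.51 to 3.99 on the per0 arrays and 2.58 to 3.07 on the wild-type ZT15 arrays, against 4.99 to 6.66 on the elav arrays. That of 7 markers of immature neurons and the cell cycle was 4.30 to 4.38, 3.39 to 4.84 and 3.31 to 3.54 on the same LNv arrays, against 6.73 to 7.29 on the elav arrays. Of the 4 neuroblast markers tested 3, 3 and 4 were lower in cyc0, per0 and wild-type LNvs, and of the 7 markers of immature neurons 5, 4 and 7 were. The mean of 7 pan-neuronal genes was 5.98 to 7.92 in cyc0, 5.86 to 7.26 in per0 and 6.20 to 7.53 in wild-type ZT15 LNvs, against 4.64 to 6.02 in elav neurons. Of the 6 tested, futsch and cac were higher in all 3 LNv groups and nSyb in wild-type LNvs. By contrast, elav itself fell by 3.03 in per0 LNvs and by 3.18 in wild-type LNvs (adjusted p = 0.00306 and 0.00191 by limma). Of 5 glial markers tested, nrv2 was lower in per0 and wild-type LNvs and Gs2 higher in wild-type LNvs. Of 6 transmitter genes 3 were lower in cyc0 LNvs, 4 lower and 1 higher in per0 LNvs, and 3 lower and 1 higher in wild-type LNvs, and of 8 LNv-associated genes 2, 6 and 5 were higher. The sole tested hemocyte and fat body genes did not pass, and no muscle or photoreceptor marker was tested. The part of these cell differences in the Rab3 and Rab10 results was not tested.

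The second set of comparisons asked whether Rab transcripts differ with the time of day or with loss of clock proteins. No Rab gene passed by limma in the comparisons run among LNv groups. The mutants were not compared with wild-type LNvs at ZT3. Between wild-type LNvs at ZT15 and ZT3, 0 of 17 passed, none had an unadjusted p under 0.05, and 0.784% of all genes passed. The smallest adjusted p was 0.616, for Rab19 (log2 difference -1.47, SE 0.79) and RabX4 (1.06, SE 0.57). RabX6 differed by -1.08 (SE 0.72, adjusted p = 0.717), although its 3 arrays at ZT15 (7.41 to 8.04) lay below those at ZT3 (8.53 to 8.88). The RabX4 arrays at ZT15 (5.60 to 6.17) lay above those at ZT3 (4.03 to 5.47), and the arrays of the other 15 tested genes overlapped. The share of all genes without overlap was not counted, so these separations are a description and not a result. Rab14 differed by 1.23 (SE 0.68) and Rab35 by -1.07 (SE 0.79), and Rab3 and Rab10 by -0.59 and -0.20. The median of the 17 genes was -0.27, against -0.06 over all genes. The glial gene repo had 2.92, 3.18 and 2.83 at ZT15 and 5.87, 3.58 and 7.37 at ZT3 (log2 difference -2.63, adjusted p = 0.191 by limma). None of 5 glial genes tested passed, with a median difference of -0.64. The mean level of 7 glial genes was 4.10 to 4.41 on the ZT15 and 4.29 to 5.24 on the ZT3 arrays. Their part in the Rab values was not tested.

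Between per0 and wild-type LNvs at ZT15, 0 of 17 passed, against 1.27% of all genes. The share of all genes with an unadjusted p under 0.05 was not counted, so the 2 Rab genes under it by limma are only described. Those were Rab19, which averaged 5.14 ± 0.95 in the mutant and 3.15 ± 0.51 in wild-type LNvs (log2 difference 1.99, adjusted p = 0.219), and Rab32, which averaged 2.68 ± 0.18 in the mutant and 4.23 ± 1.31 in wild-type LNvs (log2 difference -1.56, adjusted p = 0.234). The arrays did not overlap for either gene, and the share of all genes without overlap was not counted. Rab32 reached log2 4 on wild-type LNv arrays alone. It was therefore tested only because those arrays were high, and its values are a description and not support.

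Between cyc0 and wild-type LNvs at ZT15, 0 of 17 passed, against 2.97% of all genes. The share of all genes with an unadjusted p under 0.05 was not counted, so the 4 Rab genes under it by limma are only described. Rab18 differed by 1.51 (SE 0.55, adjusted p = 0.15), Rab10 by -1.60 (SE 0.66, adjusted p = 0.197), RabX1 by 2.05 (SE 0.89, adjusted p = 0.214) and Rab32 by -1.46 (SE 0.63, adjusted p = 0.216). Here too Rab32 was tested only because wild-type LNv arrays were high. Rab10 passed without cyc0 replicate 2 (-2.45, adjusted p = 0.028) and differed by -1.22 without cyc0 replicate 3 (adjusted p = 0.419). With array weights Rab10 also passed (-2.24, adjusted p = 0.0148 by limma). It had 8.17 on cyc0 replicate 2, with 5.54 and 5.70 on the other cyc0 arrays. Rab3 differed by 1.20 (SE 0.59, adjusted p = 0.277), with 95% limits of -0.04 and 2.44. Of the markers of other cells set beside these values, 1 of 5 glial genes (Gs2) and 1 of 6 transmitter genes (Tbh) were lower in both mutants than in wild type, and 1 of 7 genes of immature neurons (Syp) was higher in per0 LNvs. None of 6 pan-neuronal and 4 neuroblast genes passed by limma. The glial list had a median difference of -0.14 in cyc0 and -0.45 in per0 LNvs and the pan-neuronal list one of 0.38 and 0.21, with all-gene medians of 0.22 and 0.28. The mean level of 7 glial genes was 3.60 to 4.15 on the cyc0 and 3.36 to 3.72 on the per0 arrays, against 4.10 to 4.41 on the wild-type ZT15 arrays. Their part in the Rab values was not tested.

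Between cyc0 and per0 LNvs, 0 of 17 passed and none had an unadjusted p under 0.05, against 0.742% of all genes that passed. The differences ran from -1.22 for Rab10 to 0.95 for RabX6, where the low array of per0 enters. The SE of a Rab gene was 0.52 to 0.89 in every comparison, with a median of 0.63, so a missed threshold does not show equal levels.

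**Figure D4:**
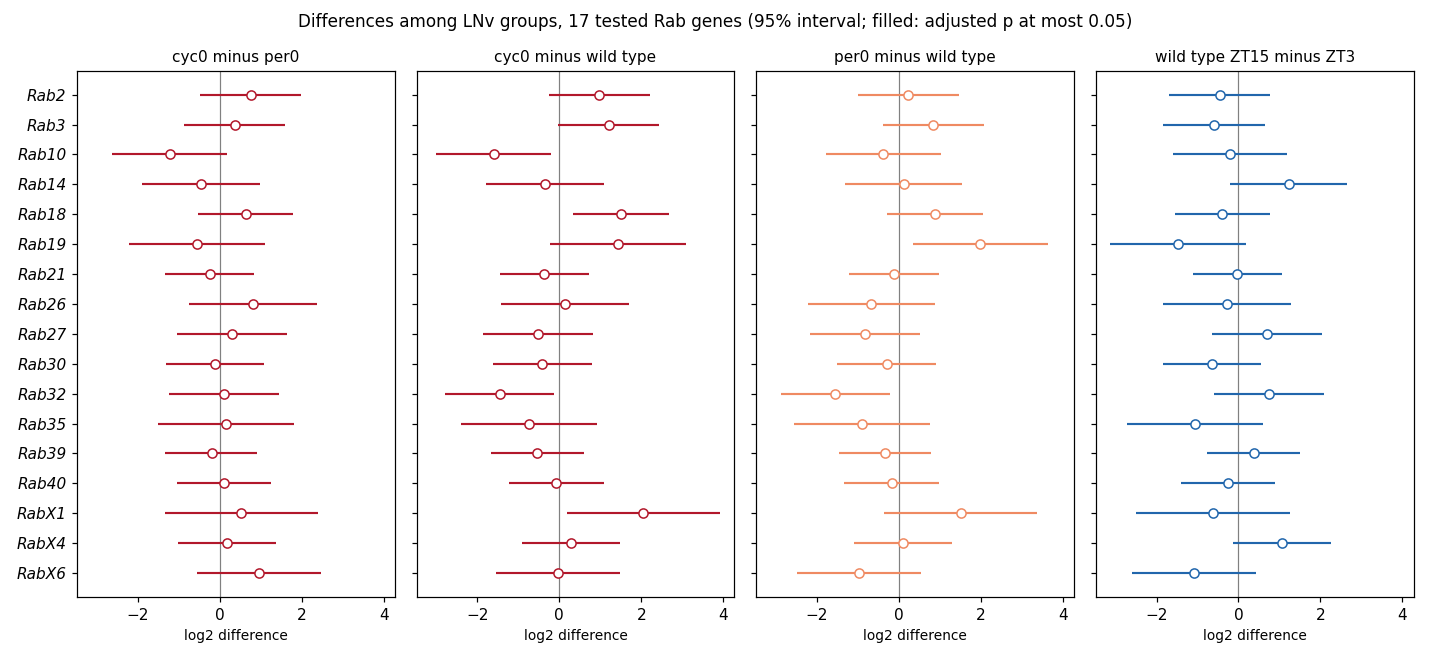
Log2 differences (horizontal axis, points) with 95% intervals (lines) among LNv groups for the 17 tested Rab genes, with a panel each for cyc0 minus per0, cyc0 minus wild type, per0 minus wild type and wild type at ZT15 minus ZT3. No point is filled, so none had an adjusted p of at most 0.05, and the largest difference in size is that of RabX1 in cyc0 (2.05).

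The genes that act on Rab proteins were described from lists of activators, inactivators, effectors and the membrane cycle. Among 17 tested activators, Rab3-GEF, the exchange factor of Rab3, rose in all 3 LNv groups at ZT15 relative to elav neurons. It had 7.88, 9.64 and 7.03 in cyc0 LNvs, 9.50, 9.75 and 9.89 in per0 LNvs, 8.87, 8.26 and 8.50 in wild-type LNvs at ZT15 and 9.70, 9.92 and 10.10 at ZT3, against 4.77, 3.93 and 5.90 in elav neurons. No LNv array overlapped with an elav array. The log2 differences were 3.32 in cyc0 (adjusted p = 0.00425), 4.85 in per0 (adjusted p = 0.000155) and 3.68 in wild-type LNvs (adjusted p = 0.00137), which are 9.96-fold, 28.8-fold and 12.8-fold. The calls in per0 and wild-type LNvs held in each of the 24 alternatives, and that in cyc0 was lost in a fit to the 6 arrays compared (adjusted p = 0.0682). Rab3-GEF reached log2 4 on 2 of 3 elav arrays, so it met the filter through its LNv arrays, and its calls are a description. All 3 calls were also made with no filter.

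Among the other activators, pcs, which encodes a Rab11 exchange factor in flies, rose in per0 LNvs (log2 difference 2.42, adjusted p = 0.0155) and had 1.89 and 1.60 in cyc0 and wild-type LNvs (adjusted p = 0.075 and 0.0906). That call was lost without per0 replicate 1 or elav replicate 1 (adjusted p = 0.109 and 0.0664). The elav arrays of pcs lay between 2.82 and 3.85, so it was tested only because its LNv arrays were high, and its call is a description. The TRAPP complex subunit gene gry fell by 1.64 in wild-type LNvs (adjusted p = 0.0465), and this call was lost in 15 of 24 alternatives, among them each array of either group left out, with adjusted p up to 0.131. In total 1 of 17 activators passed in cyc0, 2 in per0 and 2 in wild-type LNvs, near the shares of all genes (5.77%, 10.3% and 12.4%).

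Among 12 tested inactivators, CG42795, which encodes a protein with a TBC domain, rose in all 3 LNv groups. It had 6.69, 7.54 and 5.60 in cyc0 LNvs, 5.71, 5.67 and 5.90 in per0 LNvs and 6.48, 7.19 and 8.14 in wild-type LNvs at ZT15, against 3.73, 3.60 and 3.51 in elav neurons. All its elav arrays lay below log2 4 and all its LNv arrays above it, so the differences of 3.0, 2.15 and 3.66 (adjusted p = 0.00815, 0.0398 and 0.00146) may be understated. CG42795 was thus tested only because its LNv arrays were high, and its calls are a description and not support. It was 1 of 12 in each group, where 5.77%, 10.3% and 12.4% of all genes passed in cyc0, per0 and wild-type LNvs. The call in per0 was lost without any 1 of the per0 or elav arrays or without cyc0 replicate 1 (adjusted p 0.0547 to 0.116) and with no filter (0.125), and that in cyc0 without cyc0 replicate 2 (0.0526).

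Of 27 effectors and tethers tested, 1 passed in per0 LNvs relative to elav neurons, where 10.3% of all genes did, and 2 in cyc0 LNvs relative to wild type at ZT15, where 2.97% did. The gene Vps39, a subunit of the HOPS tether of late endosomes and lysosomes, rose in per0 LNvs relative to elav neurons (log2 difference 1.70, adjusted p = 0.0272), with 4.40, 4.26 and 4.88 in per0 LNvs and 3.38, 2.53 and 2.53 in elav neurons. It reached log2 4 on no other array, so it was tested only because the per0 arrays were high, and its call is a description and not support. It was lost in a fit to the 6 arrays compared (adjusted p = 0.063) and without per0 replicate 1 or 3 or elav replicate 2 or 3 (adjusted p 0.0748 to 0.101). In cyc0 LNvs relative to wild type at ZT15, 2 golgin genes rose, Golgin104 by 2.88 (adjusted p = 0.0159) and GM130 by 2.16 (adjusted p = 0.0383).

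Golgin104 had 6.40, 4.90 and 6.79 in cyc0 LNvs and 3.59, 3.59 and 4.59 in per0 LNvs. It had 2.42, 3.43 and 3.59 in wild-type LNvs at ZT15, 3.59, 4.34 and 3.59 at ZT3 and 3.70, 3.86 and 5.43 in elav neurons, and of these groups the elav neurons alone overlapped with cyc0. GM130 had 6.09, 4.99 and 6.78 in cyc0 LNvs and 4.66, 4.41 and 5.38 in per0 LNvs, against 3.85, 4.01 and 3.53 in wild-type LNvs at ZT15. At ZT3 it had 5.09, 5.77 and 4.69, and elav neurons had 5.16, 4.91 and 5.44, so the wild-type arrays at ZT15 were the low ones and the cyc0 arrays overlapped with per0, ZT3 and elav arrays. Golgins are coiled-coil tethers of the Golgi apparatus, and many bind Rab proteins. The call of Golgin104 was lost without cyc0 replicate 1 or 3 or wild-type ZT15 replicate 1 (adjusted p 0.0503 to 0.0867), with no filter (0.0595) and in a fit to the 6 arrays compared (0.0988), and that of GM130 without cyc0 replicate 1 or 3, any wild-type ZT15 array or per0 replicate 1 (adjusted p 0.0545 to 0.137), after centring (0.0545), after quantile normalization (0.0768) and in 4 further alternatives.

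Among the LNv groups, where 0.742% to 2.97% of all genes passed in each comparison, both golgins were the only calls by limma on the 5 lists. At such shares no call is the usual outcome for lists of this size, so their absence is not a result. The lists of the membrane cycle (3 tested) and of Arf and Arl GTPases (2 tested) gave no call in any comparison and are too short to read.

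**Figure D5:**
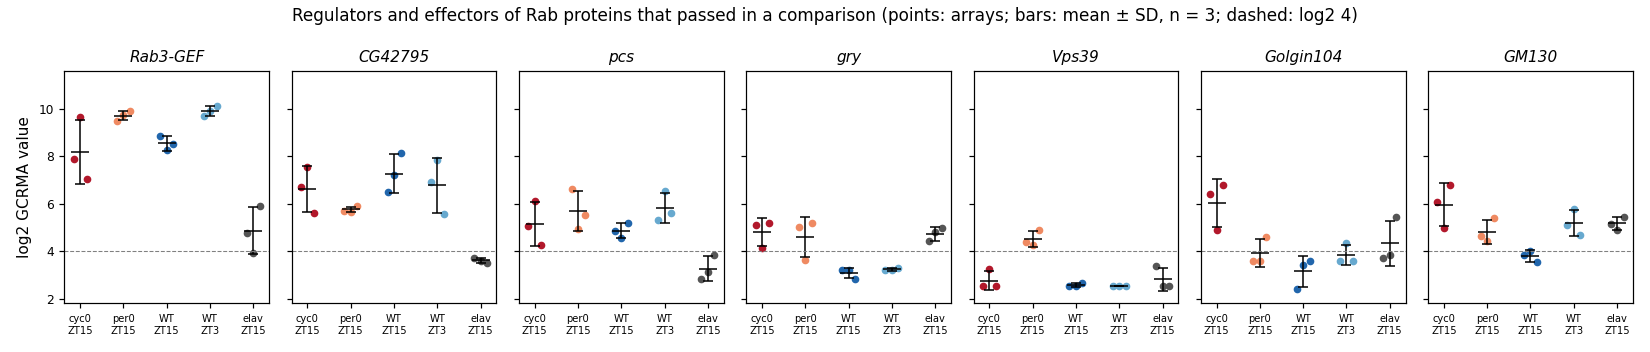
The log2 GCRMA value (vertical axis) on each array of the 7 genes from the lists of Rab regulators and effectors that passed in a comparison, with groups along the horizontal axis; points are arrays, bars are mean ± SD (n = 3) and the dashed line is log2 4. Rab3-GEF lies at 7.03 or above on all LNv arrays and at 5.90 or below on the elav arrays.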

How the data were processed

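RNA of sorted larval neurons was measured on 15 arrays in 5 groups of 3, taken from the sample titles. About 1000 cells per sample were sorted and their mRNA amplified, per the labels' protocols, which name RFP for all samples although the genotypes give GFP to 3 groups; LNvs is also given as the tissue of the elav arrays. The deposited log2 values come from GCRMA, a method the submitters' processing notes name. GCRMA models background and normalizes across arrays, so values of low transcripts are compressed and differences from them can be understated. Neither its version nor later filtering is stated in the labels.

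After removal of 100 control probe sets, 13646 of 18769 probe sets had 1 symbol, 402 several and 4721 were unnamed here. A probe set with several symbols that included the letters Rab was not used. Rab9Fb, whose symbol has letters after the number, stayed outside the rule (2.32 to 2.51 on all arrays). The limma package 3.58.1 (R 4.3.3; lmFit, eBayes) fitted a mean per group to the 15 arrays for the 5829 probe sets with log2 4 on at least 3 arrays, two-sided, with Benjamini-Hochberg adjustment within each of 7 comparisons at a threshold of 0.05. Intervals are 95% intervals of that fit. The number of arrays limits the precision, and the labels call replicates biological without saying from which cultures. The fit was tested on simulated data. All members were named, and of each list up to 4 genes with the smallest p among those past the threshold. Members and lists were chosen with earlier results of these data known. The lists held activators, inactivators, effectors, the membrane cycle and Arf GTPases, and markers of LNvs, neurons, neuroblasts, immature neurons, glia, hemocytes, fat body, muscle, photoreceptors and transmitter types.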

Additional observations from a re-analysis of the deposited data

Results flagged for a closer look

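Rab18 in cyc0 LNvs at ZT15 lay above the mean of the elav neurons on all 3 arrays, and in wild-type LNvs at ZT15 below it on all 3, with a log2 difference of 1.51 between cyc0 and wild-type LNvs (adjusted p = 0.15 by limma). Rab19 showed the same arrangement in cyc0 and wild-type LNvs (1.43, adjusted p = 0.334) and in per0 and wild-type LNvs (1.99, adjusted p = 0.219). These 3 contrasts share the elav arrays and the wild-type ZT15 arrays, and none passed the test of the difference itself. For both genes the wild-type ZT15 arrays overlapped with the elav arrays. The log2 differences were -0.16 for Rab18 and -0.57 for Rab19 (adjusted p = 0.894 and 0.692 by limma). In wild-type LNvs at ZT15 Rab18 had 2.78 to 2.99, near its lowest value on any array, 2.78.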

How the results depend on the processing

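In the 24 alternatives run for each called difference, or 23 for Vps39, which the stricter filter left out, no called difference of a Rab or pathway gene changed sign, and 5 of 15 kept their call throughout. Among the Rab differences that did not pass, 45 changed sign in at least 1 alternative, the largest of them 0.98 in size, and 12 passed in at least 1.

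Between wild-type LNvs and elav neurons the 2 Rab calls became 0 with no filter, 1 after quantile normalization, 0 with only the 6 arrays compared and 0 to 2 with 1 array left out. With array weights, whose estimation stopped before its convergence tolerance, 4 Rab genes passed in per0 LNvs and 2 in cyc0 LNvs against elav neurons (1 each without weights). Against wild type 1 passed in per0 and 4 in cyc0, and 2 passed in cyc0 against per0 (none without weights). Calls over all 5829 probe sets tested rose as well, so the gain was not particular to Rab genes. Against elav neurons they went from 597 to 1286 in per0 and from 327 to 826 in cyc0 LNvs. In per0 against wild type they went from 69 to 456, and the other counts are given below. With 1 array left out, 1 to 2 passed in per0 LNvs against elav neurons and 0 to 1 in cyc0 against wild type.

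Over all probe sets, the count against elav neurons in wild-type LNvs was 729 and 454 with no filter. In per0 LNvs it was 597, with 347 unfiltered, 1286 with array weights and 246 to 683 with 1 array left out. In cyc0 LNvs it was 327, with 498 after quantile normalization, 826 with array weights, 169 in 6 arrays and 166 to 455 with 1 array left out. Between wild-type LNvs at ZT15 and ZT3 it was 46, with 6 in 6 arrays and 20 to 47 with 1 left out. Between per0 and wild type it was 69, with 40 unfiltered, 456 with weights, 6 in 6 arrays and 25 to 142 with 1 left out. Between cyc0 and wild type it was 169, with 943 with weights, 35 in 6 arrays and 62 to 258 with 1 left out. Between cyc0 and per0 it was 46, with 24 unfiltered, 817 with weights, 21 in 6 arrays and 20 to 67 with 1 left out. The causes were not tested.

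At a level of log2 5, 5 Rab genes in cyc0, 5 in per0 and 4 in elav neurons were present on all 3 arrays. In wild-type LNvs 7 were at ZT15 and 6 at ZT3. These are 19.0% to 33.3% of the 21 genes, against 11.9% to 15.1% of all named genes. At log2 3, 13 were present in cyc0, 13 in per0, 11 in wild-type ZT15, 12 in wild-type ZT3 LNvs and 10 in elav neurons. The shares were 47.6% to 61.9%, against 31.3% to 34.7%. With log2 4 on at least 2 of 3 arrays, the counts were 11 in cyc0 and 13 in per0. They were 11 in each wild-type group and 12 in elav neurons (52.4% to 61.9%, against 25.9% to 30.3%). Same-numbered arrays of different groups gave 30 correlations of their deviations from -0.192 to 0.196 (median 0.0155, 5 over 0.1). The 60 other pairs ran from -0.276 to 0.253 (median -0.011, 5 over 0.1). The labels do not say what the numbers mean, so these values do not settle whether the arrays are paired. With the replicate block the Rab counts were 2, 1 and 1 in wild-type, per0 and cyc0 LNvs against elav neurons and 0 in the other comparisons, and the probe-set counts 713, 555, 311, 39, 46, 156 and 40 in the order above. Of the named calls the block ended those of gry (adjusted p = 0.0536) and GM130 (0.0541). The other probe set of Rab26 did not pass the filter and gave no value.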
